A study of Mus musculus with 20 samples.

Results

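The enzymes that write, copy and erase DNA methylation were followed on 20 mouse arrays, through all 20 probe sets annotated to Dnmt1, Uhrf1, Dnmt3a, Dnmt3b, Dnmt3l, Tet1, Tet2 and Tet3. The probe sets were taken by gene symbol alone, while the genes were chosen with earlier results of these data known. They are 20 of 45037 probe sets and stand for 8 of 18193 genes with a probe set of 1 symbol. Dnmt3a had 5 probe sets, Tet1 had 4, Dnmt1 had 3, Dnmt3b, Uhrf1 and Tet2 had 2 each, and Dnmt3l and Tet3 had 1 each. A probe set is a group of short probes for one transcript, and its value here is a log2 intensity, so that 1 unit is a 2-fold difference. Levels of different probe sets cannot be set against each other, because their probes differ in how strongly they bind.

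The cells stood in 6 groups. Germline pluripotent stem cells (gPS cells, 5 arrays) arose in culture from germline stem cells of OG2 mice, which are B6;CBA-Tg[Pou5f1-EGFP]2Mnn/J animals with green fluorescent protein under the Oct4 promoter. About 1000 germline stem cells were plated per well on fibroblast feeders, and round bright colonies came up after 3 to 4 weeks and were then kept under embryonic stem cell conditions. The parental germline stem cells (GSC, 3 arrays) came from testes of the same OG2 strain and grew on mitomycin-treated feeders with GDNF, EGF, bFGF and LIF. ESC-like cells (3 arrays, written ESC_like in the plots) came from testes of mice at postnatal day 0 to 2, were supplied by another laboratory and grew on feeders with LIF. Embryonic stem cells (ESC, 3 arrays) were the RW4 line on feeders with LIF. Neural stem cells (NSC, 3 arrays) were made from Olig2-GFP embryonic stem cells, and mouse embryonic fibroblasts (MEF, 3 arrays) came from C3H embryos at E12.5. The gPS cells and GSC share the OG2 strain, and between them culture conditions and cell group cannot be told apart. In the other comparisons strain or source, culture and cell group cannot be told apart. The labels do not say whether arrays of a group came from separate cultures, so the p-values measure the spread between these arrays, which may be technical.

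Methylation of cytosine is laid down on unmethylated DNA by Dnmt3a and Dnmt3b, helped by the catalytically inactive Dnmt3l, and is copied after replication by Dnmt1, which Uhrf1 brings to half-methylated sites. The Tet enzymes oxidise methylcytosine to hydroxymethylcytosine and further forms, which opens a route to its removal. In the mouse, Tet1, Tet2 and Dnmt3l are known as genes of naive pluripotent cells, Dnmt3a and Dnmt3l work in male germ cells before birth, and Dnmt3b is a gene of the early embryo.

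RefSeq lists 15 start sites for the 8 genes on GRCm38.p6, and the 250 bases before 5 of them are shown because they belong to the maintenance pair, to the Tet pair that varied together and to Dnmt3l, with CG dinucleotides, the bases that these enzymes modify, in capitals. The windows lie at chr10:78042037-78042286 on the plus strand for Dnmt3l, chr10:62887325-62887574 on the minus strand for Tet1 and chr3:133544391-133544640 on the minus strand for Tet2. Those of Dnmt1 and Uhrf1 lie at chr9:20952624-20952873 on the minus strand and chr17:56304063-56304312 on the plus strand, and for both genes the window with the most CG among several was taken. Sequences run 5′ to 3′ towards the start site.
Dnmt3l: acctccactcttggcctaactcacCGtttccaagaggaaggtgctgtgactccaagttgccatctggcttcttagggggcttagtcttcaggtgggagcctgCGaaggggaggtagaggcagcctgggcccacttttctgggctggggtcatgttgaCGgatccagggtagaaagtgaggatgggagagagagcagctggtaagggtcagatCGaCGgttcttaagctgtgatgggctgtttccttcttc
Tet1: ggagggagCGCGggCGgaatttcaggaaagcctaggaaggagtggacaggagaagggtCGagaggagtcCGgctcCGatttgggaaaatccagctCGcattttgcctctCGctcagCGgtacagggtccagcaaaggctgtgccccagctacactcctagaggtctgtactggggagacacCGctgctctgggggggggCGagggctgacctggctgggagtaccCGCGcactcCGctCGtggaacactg
Tet2: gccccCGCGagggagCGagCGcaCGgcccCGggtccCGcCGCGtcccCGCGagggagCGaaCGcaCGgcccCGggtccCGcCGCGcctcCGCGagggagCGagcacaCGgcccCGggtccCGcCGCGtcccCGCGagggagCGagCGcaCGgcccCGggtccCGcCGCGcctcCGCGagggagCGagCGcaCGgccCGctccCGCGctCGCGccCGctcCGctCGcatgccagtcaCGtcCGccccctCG
Dnmt1: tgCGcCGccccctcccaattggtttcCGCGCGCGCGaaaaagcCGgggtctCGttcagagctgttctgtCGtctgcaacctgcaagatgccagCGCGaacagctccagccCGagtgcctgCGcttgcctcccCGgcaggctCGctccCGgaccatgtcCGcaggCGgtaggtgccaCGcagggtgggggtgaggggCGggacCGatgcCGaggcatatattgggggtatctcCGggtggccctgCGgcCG
Uhrf1: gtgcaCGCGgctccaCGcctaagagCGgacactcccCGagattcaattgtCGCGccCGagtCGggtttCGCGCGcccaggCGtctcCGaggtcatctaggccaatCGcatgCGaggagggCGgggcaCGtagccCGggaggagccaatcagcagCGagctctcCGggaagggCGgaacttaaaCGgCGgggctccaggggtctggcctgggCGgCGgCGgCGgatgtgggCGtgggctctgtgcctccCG
The Dnmt3l window held 5 CG, against a median of 6 over 32851 RefSeq windows of this length, while those of Tet1, Dnmt1, Uhrf1 and Tet2 held 15, 26, 30 and 51. The other windows held 2 and 7 CG for Dnmt1, 10 for Uhrf1 and 4 and 3 for Dnmt3l, so that the counts of the first 2 genes depend on the start site shown. At least 51 CG stood in 0.067% of all windows. The letters TTTCGCGC, of the kind bound by E2F cell cycle factors, were searched on both strands after these sequences had been read. They stood in 2 of the 15 windows, on the printed strand beginning at -185 from the Uhrf1 start and on the opposite strand, where the printed letters are GCGCGAAA, beginning at -219 from the Dnmt1 start, and in 84 (0.256%) of all windows, and their CG letters are counted among the CG above. A match describes letters and is no binding site, and which start each cell group used was not measured.

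The labels were checked against marker genes. Nanog, Pou5f1, Sox2 and 6 other pluripotency genes averaged 11.18 to 11.43 per gPS array, against 7.02 to 7.11 in GSC, 11.06 to 11.22 in ESC-like cells and 11.50 to 11.59 in ESC. The 10 germline genes averaged 5.75 to 6.44 in gPS cells, highest in replicate 1, against 10.02 to 10.08 in GSC. The fibroblast list of 10 genes averaged 6.46 to 7.86 in gPS cells, highest in replicate 2, 6.70 to 6.89 in GSC, 8.12 to 8.40 in ESC-like cells, 4.51 to 4.72 in ESC, 5.93 to 6.07 in NSC and 10.39 to 10.51 in MEF. The first gPS array had the lowest mean correlation to its own group among the 20 arrays, 0.979, where the highest over all groups was 0.997. Some differences of gPS cells minus GSC, ESC or ESC-like cells crossed an adjusted p of 0.05, or 2-fold, when it was left out. For those members the value without it is given too.

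**Figure D1:**
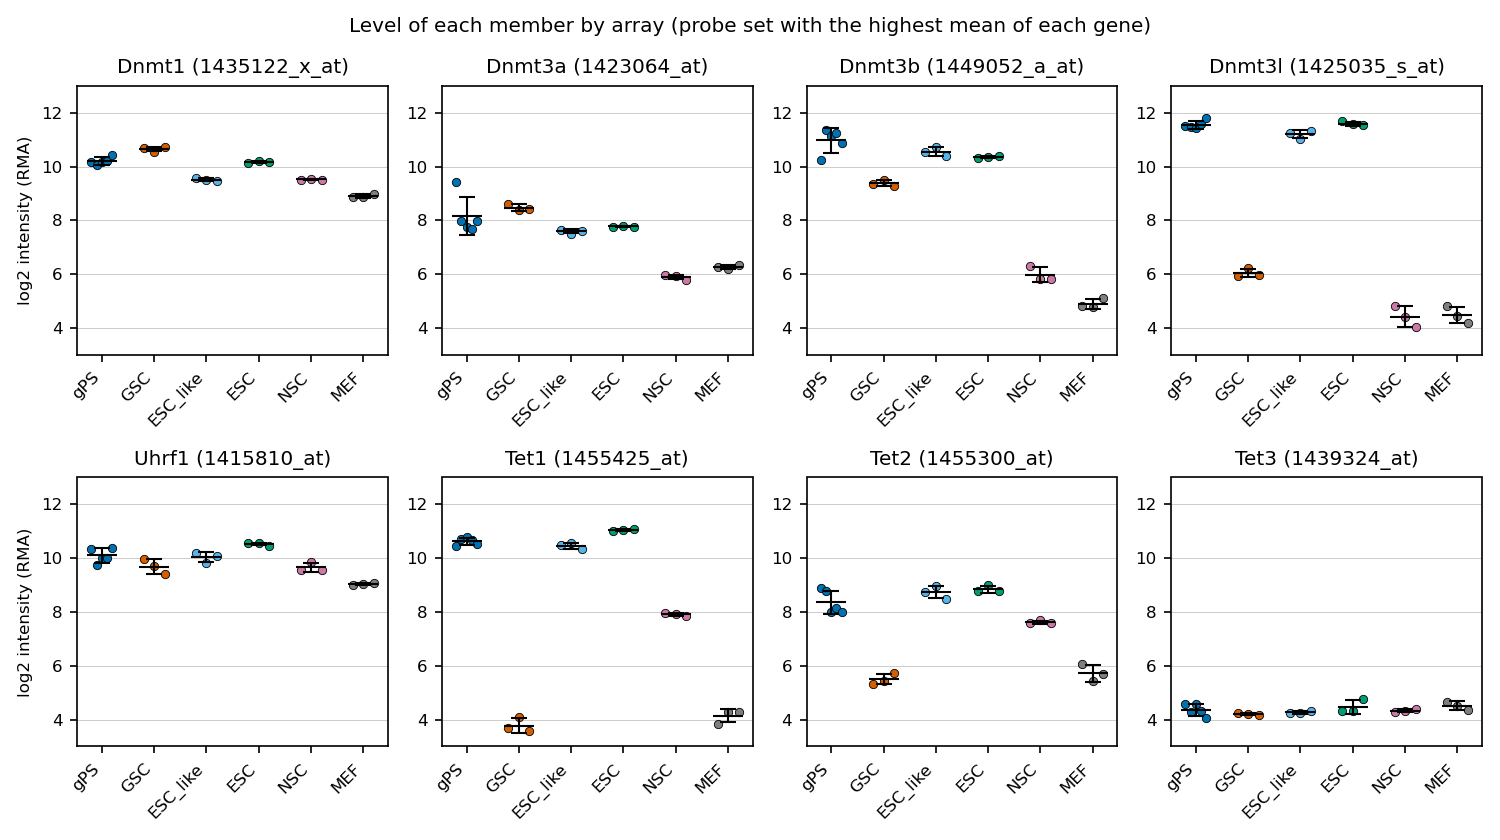
Log2 intensity (vertical axis) of the probe set with the highest mean of each gene, by cell group (horizontal axis), with a point for each array, a long bar for the mean and whiskers for the SD. Dnmt3l and Tet1 were high in gPS, ESC_like and ESC arrays and low in GSC and MEF arrays, Dnmt1 was highest in GSC, and the Tet3 means lay between 4.20 and 4.52.

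Across the 6 groups, 18 of the 20 probe sets varied by limma's moderated F test (adjusted p under 0.05, group means spanning at least 1 log2 unit), where 42.6% of all probe sets did so. The exceptions were Tet3, with a span of 0.31 and an adjusted p of 0.312, and the dimmest Tet1 probe set 1419897_at, with a span of 0.88 and an adjusted p of 8.3e-05. The spans of the others ran from 1.34 for Dnmt1 1447877_x_at to 7.29 for Tet1 1455425_at. In this bulk RNA, fewer cells of a type and less transcript per cell cannot be told apart.

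Against the parental GSC, gPS cells had higher levels of Dnmt3b, Dnmt3l, Tet1 and Tet2 and lower levels on a pair of Dnmt3a probe sets. Calls needed a difference of 2-fold or more and, in limma's test, a Benjamini-Hochberg adjusted p below 0.05. Of the 20 members, 8 were called higher and 2 lower in gPS minus GSC, where 7.41% of all probe sets were called higher and 7.80% lower. The members' median difference was 0.54 log2 units, beside 0.02 over all probe sets. The next paragraphs take the genes by their roles.

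Dnmt1 (chr9:20907206-20959888) copies methylation onto the new strand. Its probe set with the highest mean, 1435122_x_at, read 10.19, 10.05, 10.19, 10.23 and 10.43 in gPS replicates 1 to 5, against 10.71, 10.56 and 10.72 in GSC. Every GSC array lay above every gPS array, and the difference was -0.45 log2 units (SE 0.09, adjusted p 4.2e-04 by limma), less than 2-fold. The other Dnmt1 probe sets differed by -0.29 (1447877_x_at, adjusted p 0.0067) and -0.27 (1422946_a_at, adjusted p 0.15). ESC arrays read 10.14, 10.22 and 10.16 on 1435122_x_at, so that gPS cells and ESC overlapped. The difference of gPS minus ESC was 0.04, with a 95% interval of -0.15 to 0.23.

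ESC-like cells were lower for Dnmt1 than the other pluripotent groups. They read 9.57, 9.51 and 9.48 on 1435122_x_at, close to the 9.52, 9.54 and 9.51 of NSC. The difference of ESC-like cells minus ESC was -0.65 (adjusted p 6.5e-05), and of gPS minus ESC-like cells 0.70 (adjusted p 9.7e-06), both by limma and below 2-fold. On 1447877_x_at these were -0.61 and 0.62, and on 1422946_a_at -0.17 (adjusted p 0.48) and 0.53 (adjusted p 0.010). MEF arrays were the lowest of the 6 groups on all 3 probe sets, with 8.87, 8.88 and 9.00 on 1435122_x_at, and gPS minus MEF was called at 1.30, 1.04 and 1.42. The 1.04 of 1447877_x_at became 0.999 without MEF replicate 1. Fibroblast genes averaged higher in ESC-like cells than in gPS cells, GSC and ESC, as given above. That order did not hold for Dcn, with means of 6.69 in ESC-like cells and 7.64 in GSC. Nor did it hold for Lum, with 4.16 in ESC-like cells, 4.37 in gPS cells and 4.40 in GSC. The other genes of the fibroblast list followed it. The macrophage list of 5 genes averaged 6.68 to 6.88 in ESC-like cells, against 6.48 to 6.76 in GSC and 5.29 to 5.51 in ESC. Its genes did not differ alike. Lyz2 averaged 9.95 in ESC-like cells and 4.80 in ESC, while Cd68 averaged 7.78 and 7.92. For Csf1r these means were 6.49 and 6.01, for Ptprc 4.07 and 3.27 and for Adgre1 5.48 and 5.18. The part of any fibroblasts or macrophages in the Dnmt1 difference was not tested.

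Uhrf1 (chr17:56303337-56323486), which recognises half-methylated DNA, was, like Dnmt1, lowest in MEF, but highest in ESC. Its probe set 1415810_at averaged 10.10 ± 0.27 in gPS cells (SD, n = 5), against 9.69 ± 0.28 in GSC and 10.53 ± 0.05 in ESC (SD, n = 3 each). ESC-like cells averaged 10.03 ± 0.19, NSC 9.66 ± 0.18 and MEF 9.04 ± 0.03 (SD, n = 3 each). GSC, the highest group for Dnmt1, thus stood near NSC for Uhrf1, with a difference of GSC minus NSC of 0.03 (adjusted p 0.91). The difference of gPS minus GSC was 0.42 (adjusted p 0.026, and 0.058 without gPS replicate 1) on 1415810_at and 0.72 (adjusted p 0.0031) on 1415811_at, both below 2-fold. All gPS arrays lay below all ESC arrays on 1415810_at, with a difference of -0.43 (95% interval -0.73 to -0.12, adjusted p 0.042 by limma). The difference of GSC minus ESC on 1415811_at was -1.03, which was called, and it became -0.86 without ESC replicate 1 and -0.84 without GSC replicate 1.

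A list of 9 measured S and G2/M phase genes averaged 11.15 to 11.29 in gPS cells, against 9.96 to 9.98 in GSC, 11.06 to 11.12 in ESC and 11.09 to 11.10 in ESC-like cells. NSC averaged 10.87 to 10.94 and MEF 10.32 to 10.44 on that list. Dnmt1 and Uhrf1 are both known to be transcribed in dividing cells. The genes of the list did not share an order. Rrm2 and Ccne1 averaged 8.54 and 6.78 in GSC, against 12.26 and 9.13 in MEF, while Top2a, Mcm2 and Mcm5 averaged 11.62, 11.13 and 11.39 in GSC, against 10.40, 10.01 and 10.53 in MEF. The part of cycling cells in the Dnmt1 and Uhrf1 values was not tested.

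Dnmt3b (chr2:153649411-153687730), a de novo methyltransferase, had group means that spanned 6.08 log2 units. On 1449052_a_at gPS replicates 1 to 5 read 10.23, 11.37, 11.15, 11.25 and 10.88, against 9.36, 9.52 and 9.29 in GSC. ESC read 10.31, 10.37 and 10.40, ESC-like cells 10.56, 10.73 and 10.40, NSC 6.30, 5.83 and 5.83, and MEF 4.82, 4.77 and 5.12. GSC therefore lay below all pluripotent arrays and far above NSC and MEF. The difference of gPS minus GSC was 1.59 (SE 0.19, adjusted p 3.7e-07), a 3.01-fold higher level, and 1.96 (SE 0.20, adjusted p 4.3e-08) on 1418351_a_at. Without gPS replicate 1 these were 1.77 and 2.19.

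Dnmt3b was also compared between the pluripotent groups. On 1418351_a_at gPS replicates 1 to 5 read 8.05, 9.16, 9.24, 9.04 and 9.33, against 8.12, 8.22 and 7.87 in ESC. Replicate 1 lay within the ESC range and the other 4 gPS arrays above it. The difference was 0.90 (95% interval 0.48 to 1.31, adjusted p 0.0024 by limma) and was not called for want of a 2-fold change. Without gPS replicate 1 it was 1.13 (adjusted p 4.3e-07) and past the threshold. ESC-like cells read 8.89, 9.08 and 9.10, all above ESC, and the difference of ESC-like cells minus ESC was 0.96 (adjusted p 0.0032), which became 1.03 without ESC replicate 2 or ESC-like replicate 1. On 1449052_a_at gPS minus ESC was 0.61 (adjusted p 0.023) and ESC-like cells minus ESC 0.20 (adjusted p 0.54), so that the size of the ESC-like difference depended on the probe set.

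Dnmt3l (chr10:78042287-78063622), the partner that stimulates Dnmt3a and Dnmt3b, had pluripotent arrays on one side and all others far below. Its single probe set 1425035_s_at read 11.50, 11.46, 11.45, 11.57 and 11.80 in gPS cells, against 5.92, 6.23 and 5.99 in GSC. The gap of 5.51 log2 units (SE 0.15, adjusted p 2.8e-17) is a 45.6-fold higher level in gPS cells. ESC averaged 11.60 ± 0.07 and ESC-like cells 11.21 ± 0.15 (SD, n = 3 each). The difference of gPS minus ESC was -0.05, with a 95% interval of -0.36 to 0.27. GSC in turn lay above MEF (4.48 ± 0.31) and NSC (4.42 ± 0.38), by 1.56 and 1.62 (adjusted p 8.4e-08 and 4.9e-08 by limma, n = 3 each). The MEF and NSC means lay below the median of 4.97 over all values, so that the sizes may be limited by background.

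Dnmt3a (chr12:3801559-3914443), the other de novo methyltransferase, could not be given a single direction, because its probe sets ordered the groups differently. On 1423064_at gPS replicates 1 to 5 read 9.44, 7.98, 7.77, 7.67 and 7.97, against 8.61, 8.40 and 8.42 in GSC. ESC read 7.77, 7.81 and 7.76, ESC-like cells 7.66, 7.51 and 7.61, MEF 6.26, 6.19 and 6.35, and NSC 5.96, 5.92 and 5.80. This probe set and 1423066_at were thus lowest in NSC. On 1423065_at GSC were highest, with a mean of 5.86, and MEF lowest, with 4.10, while NSC averaged 5.68. On 1460324_at, by contrast, NSC read 9.19, 8.91 and 9.30, the highest of the groups, while gPS cells read 5.06, 4.44, 4.72, 5.29 and 4.88. GSC read 6.42, 6.48 and 6.06, ESC 5.39, 5.11 and 5.04, and MEF 6.02, 5.73 and 6.05 there. The difference of gPS minus NSC was 2.27 and 2.40 on 1423064_at and 1423066_at, and -4.26 and -2.17 on 1460324_at and 1423063_at, all called. The probe table gives all 5 the same transcript accession, and where along the gene each one lies was not analysed here. Several RefSeq starts of Dnmt3a are listed, and which transcript forms these probe sets read was not tested.

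**Figure D2:**
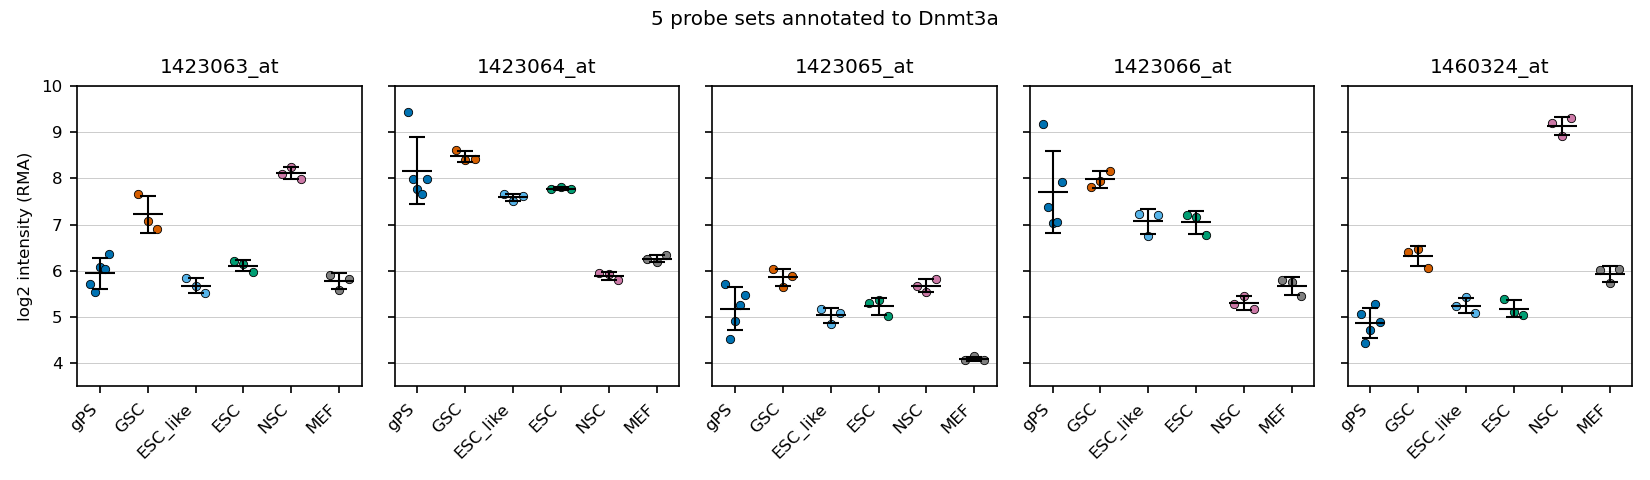
Log2 intensity (vertical axis) of the 5 probe sets annotated to Dnmt3a, by cell group (horizontal axis), with a point for each array, a long bar for the mean and whiskers for the SD. NSC were highest on 1460324_at and 1423063_at and lowest on 1423064_at and 1423066_at, and 1 gPS array stood above the rest on the last pair.

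In gPS minus GSC the Dnmt3a probe sets shared a sign but not a size. The difference was -1.44 on 1460324_at (SE 0.16, adjusted p 1.8e-07) and -1.27 on 1423063_at (SE 0.17, adjusted p 2.5e-06), both called. It was -0.68 on 1423065_at (adjusted p 0.0049), -0.31 on 1423064_at (adjusted p 0.35) and -0.26 on 1423066_at (adjusted p 0.55). Without gPS replicate 1 the last 2 were -0.63 (adjusted p 2.1e-05) and -0.63 (adjusted p 0.0084), still short of 2-fold. The gPS mean on 1460324_at, 4.88, lay below the median of 4.97 over all values. The size of differences of gPS cells on that probe set may thus be limited by background. The difference of GSC minus ESC was positive on all 5, at 0.63 to 1.14, and the 1.10 of 1423063_at became 0.88 without GSC replicate 1.

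Tet1 (chr10:62804570-62887469), an oxidase of methylcytosine, was higher in gPS cells than in GSC on all 4 of its probe sets, and called on 3. On 1455425_at gPS replicates 1 to 5 read 10.45, 10.70, 10.78, 10.66 and 10.52, against 3.67, 4.09 and 3.57 in GSC. The difference was 6.85 log2 units (SE 0.12, adjusted p 3.0e-20). The GSC level did not lie above that of MEF, which read 3.85, 4.29 and 4.27, and both stood below the median of 4.97 over all values, so that no fold is given. The other Tet1 probe sets gave 5.29 (1429448_s_at), 3.94 (1419896_at) and 0.66 (1419897_at, adjusted p 0.0022), the last with group means between 4.34 and 5.22.

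ESC read 11.02, 11.07 and 11.10 on 1455425_at, above every gPS array. The difference of gPS minus ESC was -0.44 (95% interval -0.70 to -0.18, adjusted p 0.015 by limma). All gPS arrays also lay below all ESC arrays on 1429448_s_at and 1419896_at, by -0.55 (adjusted p 0.055) and -0.46 (adjusted p 0.047, and 0.066 without gPS replicate 1). On 1419897_at gPS and ESC arrays overlapped, with a difference of -0.07. ESC-like cells minus ESC was -0.60 on 1455425_at (adjusted p 0.0032) and -0.26 and -0.20 on those 2 (adjusted p 0.44 and 0.47). The arrays of gPS and ESC-like cells overlapped on all Tet1 probe sets, and gPS minus ESC-like cells was 0.16, -0.29 and -0.27 on 1455425_at, 1429448_s_at and 1419896_at (adjusted p 0.37, 0.30 and 0.24). NSC kept an intermediate level of 7.91 ± 0.06 (SD, n = 3), 2.72 below gPS cells and 3.77 above MEF.

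Tet2 (chr3:133463677-133545136), a second oxidase, was higher in gPS cells than in GSC on both probe sets. On 1455300_at gPS replicates 1 to 5 read 8.89, 8.76, 7.99, 8.13 and 8.01, against 5.34, 5.45 and 5.71 in GSC. The difference was 2.86 (SE 0.19, adjusted p 6.1e-11), and 4.20 (SE 0.19, adjusted p 1.6e-13) on 1438781_at. GSC averaged 3.76 on 1438781_at, below the median of 4.97 over all values, so that the size there may be limited by background. Replicates 1 and 2 lay above the other 3 gPS arrays on both probe sets. NSC averaged 7.62 ± 0.06 (SD, n = 3) on 1455300_at, and gPS minus NSC was 0.74 (adjusted p 0.0030). NSC minus ESC was -1.23 (adjusted p 6.5e-05) and NSC minus ESC-like cells -1.12 (adjusted p 1.9e-04) there, and on 1438781_at these were -0.67 and -0.84. On 1455300_at gPS minus ESC was -0.49 (95% interval -0.89 to -0.09, adjusted p 0.078 by limma), and without gPS replicate 1 it was -0.63 (adjusted p 0.012). On 1438781_at gPS cells averaged 7.96 and ESC 8.04 (adjusted p 0.85 by limma). MEF averaged 5.72 ± 0.32 (SD, n = 3), near GSC on 1455300_at, but on 1438781_at the difference of GSC minus MEF was -1.65 (adjusted p 1.3e-06).

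Tet3 (chr6:83362373-83457208), the member known from the oocyte and zygote, read between 4.04 and 4.78 on all 20 arrays on its single probe set 1439324_at. Such values lie below the median of all probe sets. The level of its transcript is not resolved there.

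**Figure D3:**
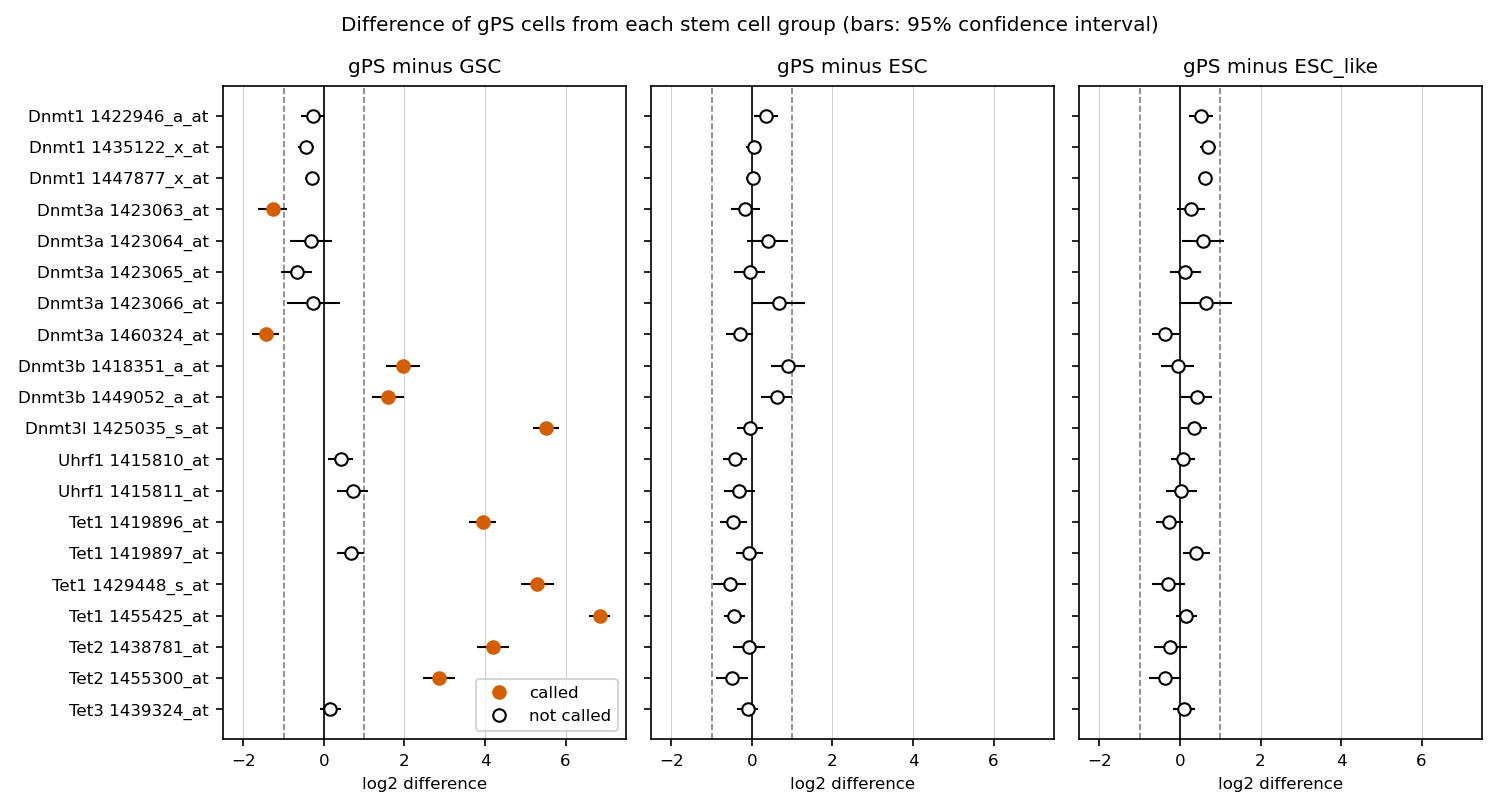
Log2 difference (horizontal axis) of gPS cells from GSC, ESC and ESC_like cells for each of the 20 probe sets (vertical axis), with bars for the 95% confidence interval, filled points for called differences and dashed lines at 2-fold. Calls stand in gPS minus GSC alone among these comparisons, 8 to the right and 2 to the left.

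Set against the pluripotent lines, no member was called. In gPS minus ESC 0 of 20 probe sets were called in either direction, where 1.74% of all probe sets were called higher and 1.99% lower. Of the 20, 9 had an unadjusted p under 0.05 and 5 an adjusted p under 0.05 by limma, where 30.6% and 20.0% of all probe sets did. The 5 were both Dnmt3b probe sets (higher in gPS cells) and Tet1 1455425_at, Tet1 1419896_at and Uhrf1 1415810_at (lower). In gPS minus ESC-like cells 0 of 20 were called, where 0.848% of all were called higher and 3.30% lower. There 8 had an unadjusted and 3 an adjusted p under 0.05, where 36.2% and 23.9% of all did, and those 3 were the Dnmt1 probe sets. Without gPS replicate 1, Dnmt3b 1449052_a_at differed by 0.60 (adjusted p 0.0026) and Tet2 1455300_at by -0.52 (adjusted p 0.034), both by limma and below 2-fold. With all gPS arrays their adjusted p were 0.11 and 0.15. In ESC-like cells minus ESC 0 of 20 were called, where 4.09% of all were called higher and 1.76% lower, with 8 at an unadjusted and 5 at an adjusted p under 0.05, where 33.8% and 22.0% of all were. Taking the outermost ends over the members, the 95% intervals reached from -0.96 to 1.32 over the members in gPS minus ESC, from -0.78 to 1.30 in gPS minus ESC-like cells and from -0.89 to 1.42 in ESC-like cells minus ESC. These comparisons share the gPS, ESC-like or ESC arrays.

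GSC set against ESC gave 2 members higher and 8 lower, where 9.32% of all probe sets were called higher and 8.89% lower. The higher ones were Dnmt3a 1460324_at (1.14) and 1423063_at (1.10). The lower ones were Dnmt3l (-5.56), Tet1 1455425_at (-7.29), 1429448_s_at (-5.84) and 1419896_at (-4.40), Tet2 1438781_at (-4.28) and 1455300_at (-3.35), Dnmt3b 1418351_a_at (-1.06) and Uhrf1 1415811_at (-1.03). The Dnmt3b value became -0.989 without ESC replicate 2 and -0.999 without GSC replicate 2, both short of 2-fold.

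Last, gPS cells were set against the cells that are neither germline nor pluripotent. In gPS minus NSC 8 were called higher and 2 lower, where 7.83% of all probe sets were called higher and 10.1% lower. The higher ones were both Dnmt3b probe sets (4.10 and 4.99), Dnmt3l (7.13), 3 of Tet1 (2.12 to 2.75) and 2 of Dnmt3a, and the lower ones Dnmt3a 1460324_at and 1423063_at. NSC averaged 4.42 on Dnmt3l and 4.87 on Dnmt3b 1418351_a_at, below the median of 4.97 over all values. The sizes there may be limited by background. In gPS minus MEF 16 were called higher and 1 lower, where 8.29% were called higher and 9.94% lower. Among the higher ones were Dnmt3l (7.07), Tet1 1455425_at (6.49) and Dnmt3b 1449052_a_at (6.08), where MEF averaged 4.48, 4.14 and 4.90. Those MEF means also lay below the median of 4.97, so that these sizes may be limited by background. The lower one was Dnmt3a 1460324_at (-1.05). That -1.05 fell short of 2-fold without gPS replicate 2 (-0.94) or MEF replicate 3 (-0.99), and likewise Uhrf1 1415810_at (1.07) without gPS replicate 5 (0.99) and Dnmt3a 1423065_at (1.08) without gPS replicate 1 (0.95).

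The first gPS array was above the rest of its group on 2 of the 5 Dnmt3a probe sets by over 1 log2 unit and below it on both Dnmt3b probe sets. It read 9.44 on Dnmt3a 1423064_at, where the other gPS arrays read 7.67 to 7.98, and 9.17 on 1423066_at, where they read 7.04 to 7.92. On the others it read 5.71 (1423065_at), where the rest read 4.53 to 5.47, and within the range of the rest on 1423063_at and 1460324_at, at 5.70 and 5.06. On Dnmt3b it read 8.05 on 1418351_a_at and 10.23 on 1449052_a_at, where the others read 9.04 to 9.33 and 10.88 to 11.37. On Dnmt3l and on 1455425_at of Tet1, its 11.50 and 10.45 were within 0.1 of the nearest other gPS array. Germline marker genes averaged 6.44 in this array, against 5.75 to 5.92 in the other gPS arrays. The neural, pluripotent and testis somatic lists were also highest in it among the gPS arrays, and the part of such cells in its Dnmt3a and Dnmt3b values was not tested.

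**Figure D4:**
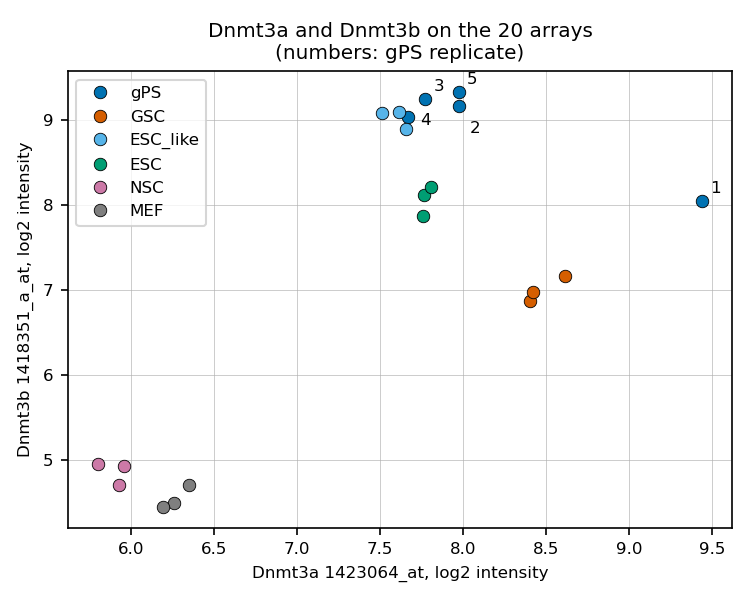
Dnmt3b 1418351_a_at (vertical axis, log2 intensity) against Dnmt3a 1423064_at (horizontal axis, log2 intensity) on the 20 arrays, coloured by group, with numbers for the gPS replicates. The first gPS array, at 9.44 and 8.05, lies away from the other 4, and on the Dnmt3b axis it lies within the ESC range.

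The surrounding methylation pathway was described from 5 lists with 44 of 51 genes measured, with the highest-mean probe set standing for each gene. In gPS minus GSC 10 were called higher, 7 lower and 27 neither, where the shares over all 18193 genes were 9.10% higher and 10.9% lower. The median of the 44 genes was -0.10, beside 0.02 over all genes. The changes by list follow.

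Among 11 maintenance and targeting partners 2 rose and 1 fell. Zfp57, which keeps methylation at imprinted regions, rose by 2.14 (SE 0.34, adjusted p 1.9e-05) and Morc1, a silencer of transposons in male germ cells, by 1.42 (SE 0.12, adjusted p 2.6e-09). Zfp57 read 8.51 in gPS replicate 1 and 6.02 to 7.07 in the others, and the difference of means without that array was 1.73. The GSC mean of Zfp57, 4.76, lay below the median of 4.97 over all values, so that its size may be limited by background. Ehmt2, a histone H3 methyltransferase, fell by 1.41 (SE 0.19, adjusted p 2.3e-06). Setdb1, another histone methyltransferase, differed by -0.15 (adjusted p 0.38).

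Among 7 genes listed as readers of methylated DNA or their relatives, 3 fell and 1 rose. Zbtb33, the protein Kaiso, fell by 2.72 (SE 0.14, adjusted p 1.6e-12), to a mean of 7.67 in gPS cells, against 10.39 in GSC. Mbd2, a methyl-CpG binding protein, fell by 1.67, and Mbd1, named here after its value was seen, by 1.14. Mbd3, which belongs to the NuRD complex, rose by 1.39. Zbtb4 differed by -0.17 (adjusted p 0.33).

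Of 10 genes for the removal of modified cytosine 2 rose and 1 fell. Gadd45a, a stress-induced gene that has been tied to demethylation, rose by 3.06 (SE 0.10, adjusted p 9.0e-16), the DNA glycosylase Neil1 rose by 1.38, and the cytidine deaminase Apobec1 fell by 1.06. The endonuclease Apex1 differed by 0.04 (adjusted p 0.75).

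Of 11 regulators and partners in pluripotent and germ cells 4 rose and 1 fell. Nanog rose by 7.71, Idh2, an enzyme that makes the Tet cofactor alpha-ketoglutarate, by 4.01, and Prdm14, a repressor of Dnmt3b in mouse embryonic stem cells, by 3.27. GSC averaged 3.96 for Nanog and 4.44 for Prdm14, below the median of 4.97 over all values. The sizes for both may thus be limited by background. Named after their values were seen, Dppa3, a protector of methylation in the zygote, rose by 2.27 (3.05 as a difference of means without gPS replicate 1) and the histone demethylase Kdm1b fell by 2.83. Cxxc4 differed by -0.28 (adjusted p 0.097). Its means of 3.81 in gPS cells and 4.09 in GSC lay below the median of 4.97, so its level is not resolved. Of 5 genes of methyl donor metabolism, Ahcy rose by 1.17 and Mtr, methionine synthase, fell by 2.83 (SE 0.15, adjusted p 1.7e-12 by limma). Mat1a, which makes the methyl donor in liver, differed by -0.06 (adjusted p 0.72). Its means of 3.23 in gPS cells and 3.29 in GSC also lay below that median, so its level is not resolved.

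The pathway genes were also compared with the pluripotent lines. In gPS minus ESC 3 were called higher and 1 lower, where the shares over all genes were 2.36% higher and 2.13% lower. Dppa3 was higher by 2.84 (SE 0.59, adjusted p 0.0012), with gPS arrays at 7.62, 11.11, 11.60, 11.70 and 11.66, against 7.85 to 7.95 in ESC. Replicate 1 alone lay below the ESC arrays, and without it the difference of means was 3.62. Gadd45g was higher by 2.51 (SE 0.27) and Gadd45a by 1.09, which became 0.999 without ESC replicate 3. Mbd4, a glycosylase that binds methyl-CpG and removes thymine from mismatches, was lower by -1.48 (SE 0.15, adjusted p 3.9e-07), with 6.34 to 7.09 in gPS cells, against 8.21 to 8.27 in ESC. The uncalled gene with the smallest difference in each list was Usp7 (0.07), Zbtb33 (-0.19), Nthl1 (-0.03), Cxxc4 (0.02) or Mat1a (-0.11). Cxxc4 averaged 3.81 in gPS cells and 3.79 in ESC, and Mat1a 3.23 and 3.34. These means lay below the median of 4.97 over all values, so the levels of both genes are not resolved.

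In gPS minus ESC-like cells 0 of the 44 genes were called higher and 2 lower, where the shares over all genes were 1.11% higher and 3.74% lower. Called lower were Mbd4 (-1.41, adjusted p 7.3e-07) and Prdm14 (-1.29, adjusted p 2.1e-05). The smallest differences of the 5 lists were those of Trim28 (-0.02), Zbtb33 (-0.02), Nthl1 (-0.02), Cxxc4 (-0.08) and Mat1a (0.02). Cxxc4 and Mat1a averaged 3.89 and 3.21 in ESC-like cells, again below the median over all values, so their levels are not resolved. Without gPS replicate 1 there were 5 called genes, with Dppa3 (2.19), Gadd45g (1.06) and Setdb1 (1.03) added as higher.

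Genes whose levels over the 20 arrays were most like those of each member were taken by Pearson's r, as a description that rests mainly on the differences between groups. Dnmt3l was nearest to Acsbg3 (0.996), Rpp25 (0.994) and Mkrn1 (0.993), and Tet1 to Sap30 (0.990), 2500002B13Rik (0.987) and Spc24 (0.980). For Tet2 they were Sap30 (0.972), Tet1 (0.971) and Spc24 (0.964), so that another member stood among its 3 nearest genes. Dnmt3b was nearest to C2cd5 (0.987), Cbfa2t2 (0.986) and 2700097O09Rik (0.985). Dnmt1 was nearest to Snrnp200 (0.976), Sae1 (0.971) and Nup133 (0.964), and Uhrf1 to Zfp532 (0.940), Get3 (0.930) and Lcmt2 (0.927), with no gene in common. Dnmt3a 1423064_at was nearest to Spint1 (0.958), Esyt3 (0.956) and Surf6 (0.954). Among the members themselves, Tet1 and Tet2 had r = 0.971, Dnmt3b and Dnmt3l 0.899, Dnmt1 and Uhrf1 0.583, and Dnmt1 with Tet1 and Tet2 0.173 and 0.099.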

How the data were processed

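RNA of 20 mouse cell samples was labelled in 1 cycle and hybridised to Affymetrix arrays, per the labels' protocols. The deposited values are log2 intensities per probe set which the authors computed with RMA (no version is named), according to the labels and per the submitters' processing notes. RMA subtracts background, equalises the arrays' distributions and combines the probes of each set. A joint run of all arrays is not given in the sources used here, and the ESC-like arrays carry later sample numbers. Of 45101 probe sets 64 controls were left out. Genes came from the platform's probe table, with 34945 probe sets of 1 symbol, 932 of several and 9160 of none, and 34741 symbols were updated through a RefSeq gene table. Array medians were 4.94 to 5.04. No detection calls were used, and the number of arrays limits the precision.

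A limma model (version 3.58.1, R 4.3.3, lmFit then eBayes) gave each of the 6 groups its mean, with no covariate and all arrays in the fit, with Benjamini-Hochberg adjustment over all 45037 probe sets, or over 18193 genes (the probe set with the highest mean) for the pathway lists. SE is limma's moderated standard error of a log2 difference. The fit was tested on simulated data. Named were all members, per pathway list, for gPS cells minus GSC, ESC and ESC-like cells alone, the 3 called genes with the largest differences and the gene not called with the smallest, and the 3 genes of highest correlation among those whose group means span at least 1. The members and lists were chosen with earlier results of these data known. Listed genes beyond the 44 described were not analysed here. Marker lists were pluripotent, germline, fibroblast, neural stem, testis somatic, macrophage and cycling. Neural genes (7 of 8 measured) averaged 9.00 to 9.14 in NSC and 4.92 to 5.60 elsewhere, macrophage genes 5.10 to 6.09 in gPS cells, against 6.48 to 6.76 in GSC, and testis somatic genes 4.69 to 5.30 in all groups. Promoter sequences are RefSeq's on GRCm38.p6. Replicate numbers are not stated to pair samples. Of 45 correlations between same-numbered deviations, -0.17 to 0.25, 6 exceeded 0.1. Differently numbered arrays were not correlated beside them, so these values cannot exclude a pairing. Figures were drawn with matplotlib 3.10.9, and tables with pandas 2.3.3 and numpy 2.4.6 under Python 3.11.15.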

Additional observations from a re-analysis of the deposited data

Results flagged for a closer look

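In the 5 gPS arrays, 2 of the 20 member probe sets had 1 array farther from the rest than Dixon's 95% critical value of 0.71 (gap over range) allows. Dnmt3a 1423064_at read 9.44 in gPS replicate 1, where the other 4 arrays read 7.67 to 7.98, with a gap of 0.826 of the range. Dnmt3b 1418351_a_at read 8.05 in the same array, where the others read 9.04 to 9.33, with a gap of 0.774. Chance flags about 1 group in 20. Over all 45037 probe sets, gPS replicate 1 was set apart in 2.72% and any gPS array in 6.62%.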

How the results depend on the processing

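Over the 140 member differences, 2486 values under alternatives with a 2-fold minimum held 14 lost calls, 5 gained calls and 0 of opposite sign among calls. The differences involved lay close to 2-fold, and those that leave out 1 array are given with the genes. The others were Dnmt3a 1423063_at in GSC minus ESC with array weights (0.99), Dnmt3a 1423065_at (0.96) and Uhrf1 1415810_at (0.998) in gPS minus MEF with the replicate block, and, without gPS arrays 1 and 2 together, Dnmt3a 1460324_at in gPS minus MEF (-0.97, lost) and Dnmt3b 1418351_a_at in gPS minus ESC (1.14, gained). Dnmt3b 1449052_a_at in GSC minus ESC was gained without GSC replicate 2 (-1.04).

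With no minimum fold, called members numbered 16 for gPS minus GSC (main 10), 5 for gPS minus ESC, 3 for gPS minus ESC-like cells and 5 for ESC-like cells minus ESC (main 0 each), 19 for GSC minus ESC and 19 for gPS minus NSC (main 10 each), where 40.9%, 20.0%, 23.9%, 22.0%, 41.3% and 44.6% of all probe sets were called. With 1 probe set per gene, 8 members were tested in place of 20, so the counts cannot be read as lost calls. Called among the 8 were 4 for gPS minus GSC, 3 for GSC minus ESC and 4 for gPS minus NSC. For gPS minus MEF 7 were called, where the main count was 17 of 20. Of the 18193 genes, 9.10% passed both thresholds upwards and 10.9% downwards in gPS minus GSC. For the remaining comparisons with 1 probe set per gene, no share over all genes is set beside the count. Whether those counts are particular to the members was not tested. Without probe sets of shared suffix (names in x_at, s_at or a_at) called members numbered 6, 6 and 10 for gPS minus GSC, NSC and MEF. That setting drops every Dnmt1, Dnmt3b and Dnmt3l probe set and Tet1 1429448_s_at, so its counts also come from fewer members. Leaving out 1 array gave 0 to 1 for gPS minus ESC and for ESC-like cells minus ESC, and leaving out gPS arrays 1 and 2 gave 1 for gPS minus ESC.

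Of the 44 pathway genes, those called with no minimum fold numbered 36, 18, 14, 34, 36 and 18 for gPS minus GSC, gPS minus ESC, gPS minus ESC-like cells, GSC minus ESC, gPS minus NSC and ESC-like cells minus ESC, against 17, 4, 2, 16, 18 and 1 in the main setting, where 50.9%, 25.0%, 29.3%, 50.3%, 52.6% and 28.2% of all genes were called with no minimum fold. For gPS minus ESC-like cells they numbered 1 with probe sets averaged per gene, 5 without gPS arrays 1 and 2, and 2 to 5 leaving out 1 array. For ESC-like cells minus ESC they numbered 2 with array weights, 2 with the compared groups alone, 0 without shared suffixes and 1 to 2 leaving out 1 array. With the replicate number as a block, all 20 members were tested. Called were 10 in gPS minus GSC, 0 in gPS minus ESC and 15 in gPS minus MEF, against 10, 0 and 17 in the main setting. Beyond the setting with no minimum fold, shares over all genes are not set beside the pathway counts. Nor are such shares given for the members without shared suffixes or with the block. Whether those shifts are particular to these genes was not tested. The causes of these shifts were not tested beyond the smaller number of probe sets. Probe sets near the median of all values, such as Tet3, are limited by background.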
